A study of Rattus norvegicus with 18 samples.

Results

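The genes described here are those of lipogenesis and lipid storage in rat liver, chosen by gene symbol from a list of 10: Gpam, G0s2, Fasn, Acaca, Scd1, Srebf1, Acly, Elovl6, Plin2 and Lpin1. Of these, 9 had at least 1 probe set (a group of array probes that reports on 1 transcript), out of 13988 genes with a name on the array. Lpin1 matched no probe set and was not analysed here. In all, 16 probe sets named a member, 13 by the listed symbol and 3 by Adfp, the older symbol of Plin2. All 16 passed the filter on low signals described below.

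The liver makes fatty acids from citrate that leaves the mitochondria. Acly splits that citrate into acetyl-CoA, Acaca makes malonyl-CoA, Fasn builds palmitate, Elovl6 lengthens it and Scd1 adds a double bond, while Srebf1 encodes the transcription factor SREBP-1, which switches these genes on in the fed, insulin-stimulated liver. Gpam joins the first fatty acid to glycerol 3-phosphate and so starts triglyceride assembly. Plin2 coats the lipid droplets in which triglyceride is kept, and G0s2 holds back the triglyceride lipase that empties them. After removal of a large part of the liver, the remnant is known to fill with lipid droplets for a time before it grows back.

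Liver RNA of 12-week-old Sprague-Dawley rats was hybridised to 18 oligonucleotide arrays (Affymetrix, Rat Genome 230 2.0), with 3 arrays for each group. The groups were normal liver at 0 h and, at 2 h after surgery, a sham operation, partial hepatectomy (PH), sympathectomy with partial hepatectomy (SPH), vagotomy with partial hepatectomy (VPH) and total liver denervation with partial hepatectomy (TDPH). Every denervated group had thus also lost part of its liver, no denervated liver without hepatectomy was analysed here, and the tissue was the middle part of the right lobe, flushed free of blood. Arrays within a group are labelled as technical replicates, so n counts arrays, the SDs and p-values cover only the spread between arrays, and how many animals they stand for is not stated in the labels.

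The signals had been scaled to a common level on every array, with medians from 114.5 to 150.4. The 3 SPH arrays stood apart from one another. The SD of the log2 differences between a pair of them was 0.267 to 0.314 over the 7247 probe sets with a mean signal above 500, while VPH replicates 2 and 3 were the closest pair of all at 0.0977. The hepatocyte marker albumin was bright on every array. Of 8 adipocyte markers, the defining genes Adipoq, Lep, Plin1 and Fabp4 stayed under the filter, while Cfd, Cidea, Cidec and Lipe passed it. Summed signals of all 8 were 3627 to 3856.5 in normal liver, 4539 to 4581 after sham operation and 5241 to 5726 after PH. The sums were 4741 to 4960.4 after SPH, 6479.6 to 6854 after VPH and 4844 to 5499 after TDPH. Of the 8 markers, the droplet protein gene Cidec ran at 1307 to 1571 in normal liver, 2724 to 2871 after sham operation and 3830.1 to 3925 after VPH. Summed lymphocyte markers (6 of 7 listed had a probe set, all past the filter) ran at 21005 to 21893 in normal liver, 2862 to 3305 after sham operation, 8091 to 8344 after PH, 7136 to 20751 after SPH, 22085 to 22348 after VPH and 8854 to 9503 after TDPH. Cd74, an antigen presentation gene not limited to lymphocytes, made up most of that sum, with 6549 to 20112 after SPH. The T cell genes were dim in every group, with Cd3e at 125 to 199.9, Cd3g at 226 to 333 and Cd8a at 50.3 to 97.7 after SPH. Cd3e ran at 240 to 323 in normal liver and 279 to 350 after VPH. It ran at 19.2 to 101 after sham operation and 95.2 to 198 after PH. Cd8a ran at 167 to 255 in normal liver and 189 to 243 after VPH. It ran at 62.6 to 99.7 after sham operation and 54.5 to 101 after PH. Summed macrophage markers ran at 23917 to 24350 after VPH and 14228 to 20389 elsewhere. Summed pancreatic acinar markers ran at 2915 to 3656 in normal liver and 730.5 to 1924 elsewhere, and red cell markers at 4529 to 4980.5 in normal liver and 9254 to 26987 elsewhere. The part of these in the results below was not tested. In whole liver, a smaller share of a cell type and less RNA per cell cannot be told apart.

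Differences were tested on log2(signal + 12) over all 22125 probe sets that exceeded, on 3 or more arrays, the percentile 40 of that array. "Rose" and "fell" are kept for probe sets with an adjusted p under 0.05 and at least a 2-fold difference. Smaller differences that passed the adjusted p alone are given as higher or lower. The members' signals, group by group, are plotted array by array.

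**Figure D1:**
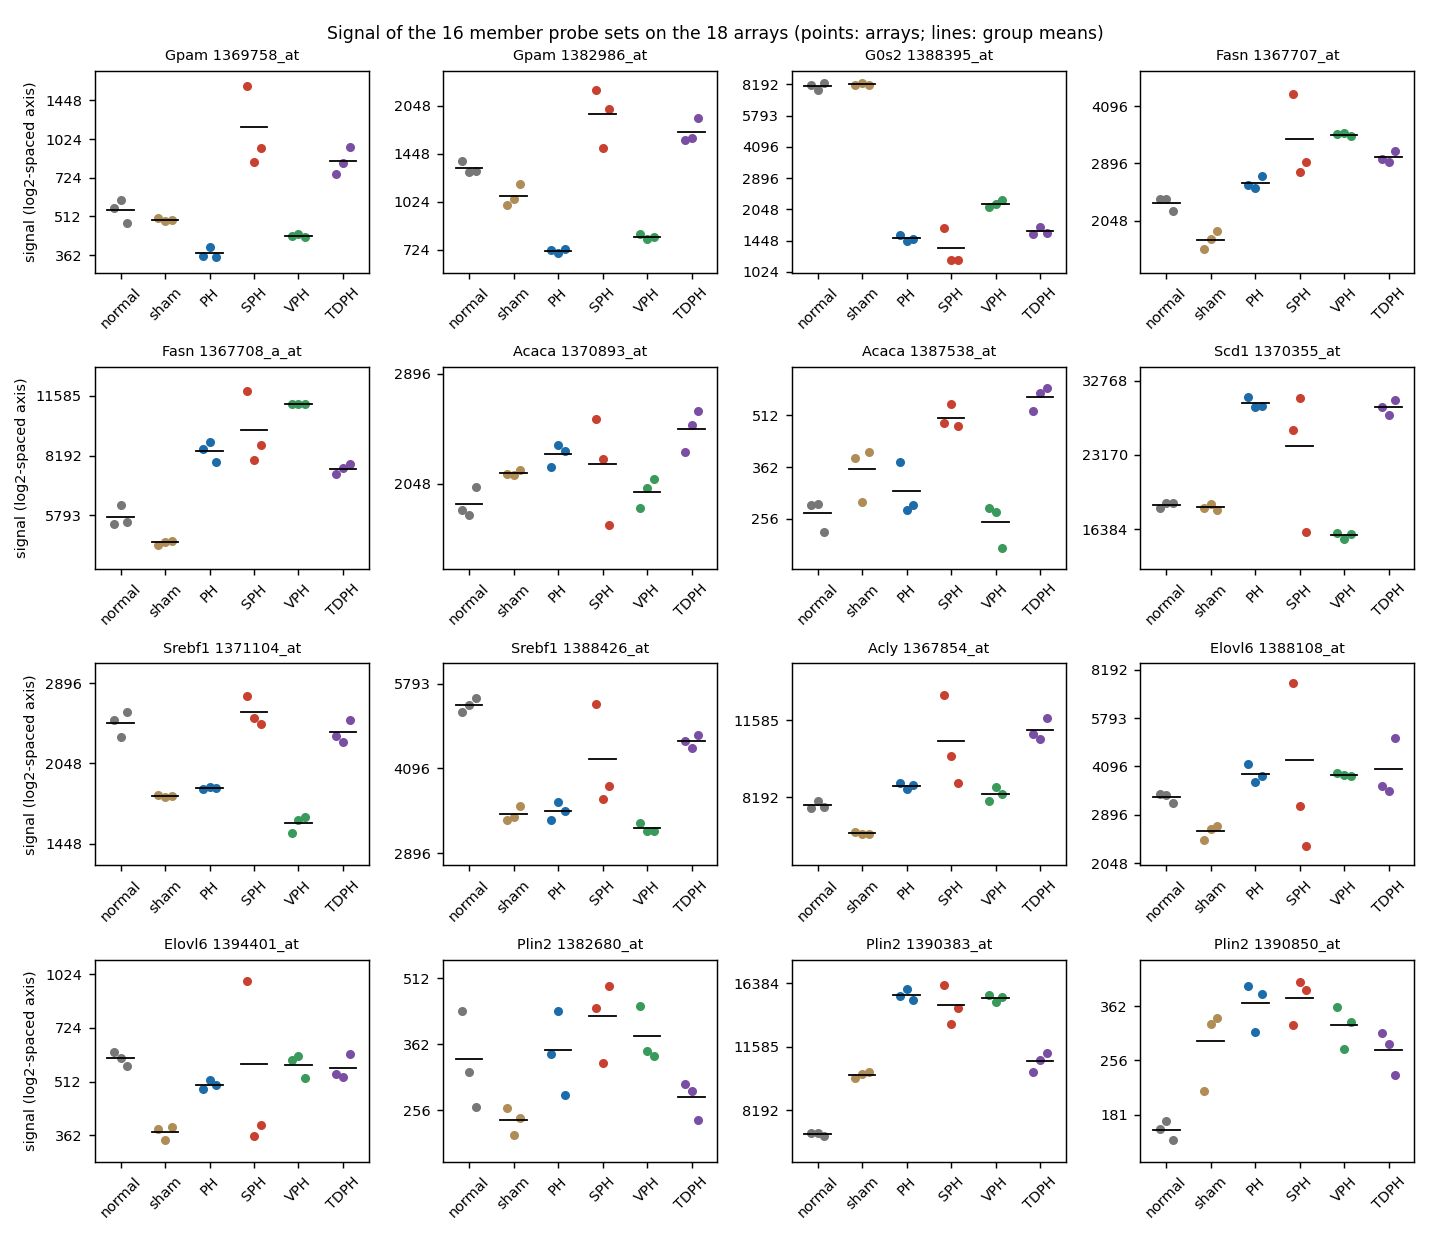
Signal of each of the 16 member probe sets (vertical axis, log2-spaced, own range per panel) on the 18 arrays by group; points are arrays and lines are group means. G0s2 lies between 7694 and 8289 in normal and sham liver and between 1169 and 2273 in all 4 hepatectomy groups, and both Gpam probe sets are highest in SPH and TDPH.

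Sham operation against normal liver asks what surgery and 2 h of recovery did without removal of tissue. No member rose and none fell, where 1.03% of all tested probe sets rose and 1.99% fell, but 5 of 16 passed the adjusted p alone, 2 higher and 3 lower, where 7.77% of all tested were higher and 9.01% lower. Both Srebf1 probe sets were lower after sham operation. Elovl6 1394401_at was also lower, though not with any 1 array of either group left out (adjusted p up to 0.133), and 2 of the 3 Plin2 probe sets were higher. Sham arrays also lay wholly below normal, without passing, for both Fasn probe sets, Acly, Elovl6 1388108_at, Gpam 1382986_at and Plin2 1382680_at. Both Acaca probe sets lay wholly above normal, without passing. Fitting only sham and normal liver gave 2 higher and 8 lower, array weights 2 and 7, and quantile normalization 3 and 5. Centring each array on its own median gave 3 and 2, and leaving out any 1 array gave 2 or 3 higher and 2 lower. The median member difference was -0.20, beside -0.03 for all probe sets tested.

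Hepatectomy against sham operation asks what the loss of liver tissue added. Of the members, G0s2 fell and none rose, where 2.39% of all tested probe sets fell and 1.98% rose. Past the adjusted p alone, 5 member probe sets were higher (both of Fasn, and 1 each of Scd1, Acly and Plin2), where 8.75% of all tested were, and 2 were lower (G0s2 and 1 of Gpam), where 13.6% were. With each array centred on its own median, 8 were higher and 2 lower. Fitting only PH and sham gave 7 and 3, array weights 6 and 3, and quantile normalization 5 and 2. The median member difference was 0.33. Over all tested probe sets the median in this comparison was -0.11. The median signals of the arrays were 114.5 to 129 after PH and 134.6 to 143.2 after sham operation. The part of the scaling in that offset was not tested.

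The 3 nerve lesions were each compared with hepatectomy alone. Sympathectomy gave 2 rises and no fall among the members, both of them Gpam, where 0.94% of all tested rose and 0.547% fell. Vagotomy gave none of either, where 1.09% rose and 0.701% fell. Total denervation gave 2 rises, again both Gpam probe sets, where 1.29% rose and 0.362% fell. The 3 comparisons share the PH arrays. Past the adjusted p alone the counts were 7 higher and 0 lower after sympathectomy (7.41% and 6.8% of all tested), 3 and 2 after vagotomy (6.04% and 5.93%), and 6 and 1 after total denervation (10.5% and 7.24%). The medians over the members were 0.20, -0.01 and 0.13, beside 0.03, 0.05 and 0.11 for all tested.

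**Figure D2:**
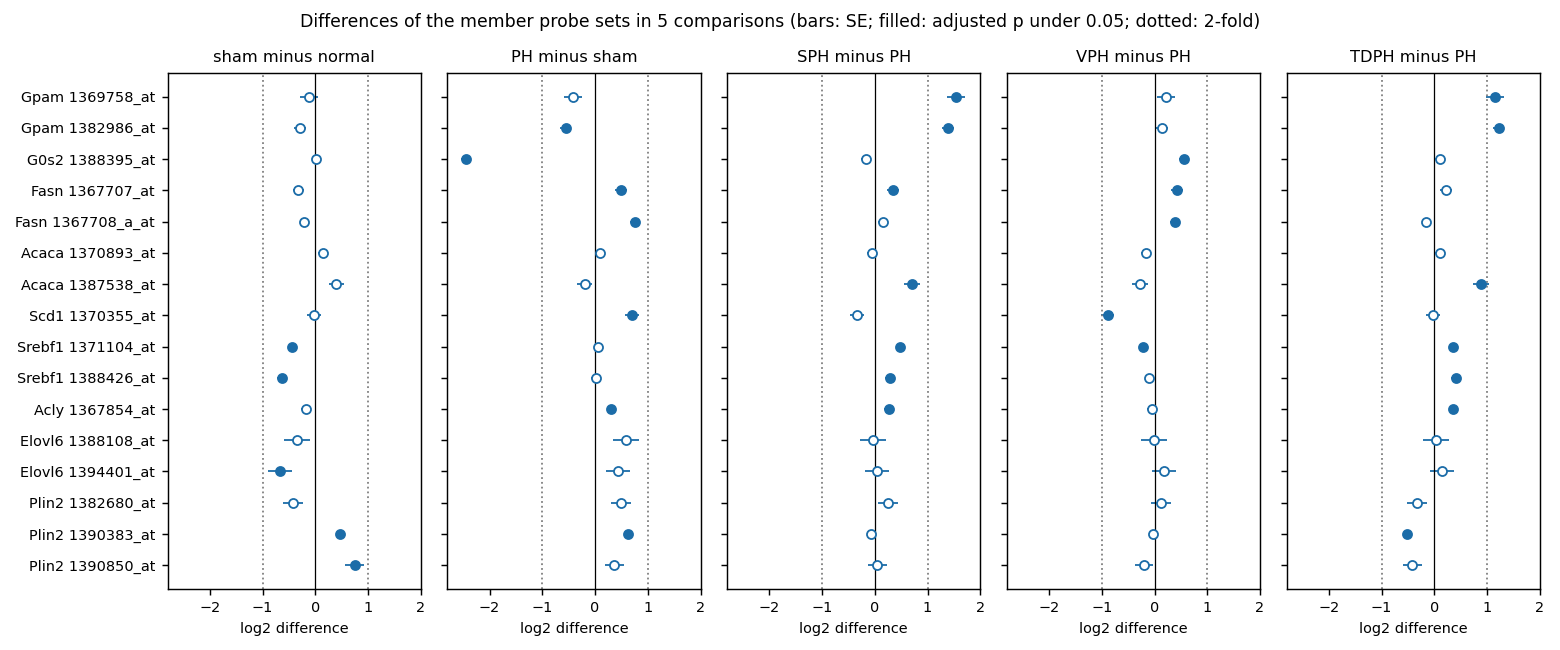
Log2 difference of each member probe set (horizontal axis) in 5 comparisons; bars are the SE of the limma fit, filled points have an adjusted p under 0.05 and dotted lines mark 2-fold. G0s2 lies at -2.45 in PH minus sham, and the Gpam probe sets are the only points beyond 2-fold in the panels for SPH (1.54 and 1.39) and TDPH (1.16 and 1.22).

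Srebf1, the regulator of the set, had 2 probe sets. For 1371104_at the signals were 2469, 2298 and 2564 in normal liver, 1790.2, 1770.4 and 1778 after sham operation and 1829.8, 1853 and 1838 after PH. The sham arrays lay below all normal arrays, and the level was lower by a log2 difference of -0.45 (SE 0.06, adjusted p = 1.36e-05). The other probe set, 1388426_at, went from 5315 ± 154 to 3396 ± 99.5 (SD, n = 3), a log2 difference of -0.64 (adjusted p = 3.3e-05). Hepatectomy added no detectable change to this, with differences from sham of 0.05 and 0.02 (adjusted p = 0.627 and 0.912).

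With the sympathetic nerves cut, Srebf1 1371104_at read 2746, 2496 and 2432, and with all nerves cut 2306, 2249.7 and 2475. Every array of both groups lay above the 3 PH arrays. The log2 differences from PH were 0.47 (SE 0.06, adjusted p = 2.34e-05) for SPH and 0.35 (SE 0.06, adjusted p = 0.000362) for TDPH, and for this probe set the arrays of both overlapped those of normal liver. After vagotomy the same probe set was lowest of all 6 groups, at 1515, 1603 and 1626, a difference from PH of -0.22 (adjusted p = 0.0202) that no longer passed without VPH replicate 1 (-0.19, adjusted p = 0.0805), nor without VPH replicate 2, PH replicate 2 or PH replicate 3. It also missed in a fit whose prior variance did not follow the mean level (adjusted p = 0.061). Total denervation was therefore above vagotomy alone by 0.56 (adjusted p = 1.18e-06). The second Srebf1 probe set gave 0.28 for SPH (adjusted p = 0.0445), -0.10 for VPH (adjusted p = 0.539) and 0.41 for TDPH (adjusted p = 0.00347). Its TDPH arrays, at 4448 to 4697, lay below all normal arrays, at 5160.1 to 5468. When each array was centred on its own median, the TDPH differences of both probe sets dropped to 0.19 and 0.25 and no longer passed (adjusted p = 0.12 and 0.16).

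Acly, which supplies acetyl-CoA, was measured by 1 probe set. It read 7016, 6954 and 6944 after sham operation, 8738, 8490.4 and 8654 after PH, and 10888, 10642 and 11723 after TDPH. Each of these groups lay wholly above the one before. PH was above sham by 0.31 (SE 0.09, adjusted p = 0.0148), which was 0.19 with quantile normalization (adjusted p = 0.103). TDPH was above PH by 0.36 (SE 0.09, adjusted p = 0.00638), and this was 0.20 with centred arrays (adjusted p = 0.251). The SPH arrays read 12992, 9874 and 8741, and their difference from PH of 0.27 (adjusted p = 0.0455) was 0.11 without the first of them (adjusted p = 0.189). VPH, at 8315 ± 265, overlapped PH.

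Acaca, whose enzyme makes the committed step of fatty acid synthesis, had 2 probe sets that differed. The dimmer one, 1387538_at, read 375, 272 and 280.1 after PH, 486, 551 and 475 after SPH, 275, 268 and 210.4 after VPH and 528, 593 and 615 after TDPH. Both groups without sympathetic nerves lay above every array of the other 4 groups. Its log2 differences from PH were 0.70 for SPH (SE 0.15, adjusted p = 0.00389) and 0.89 for TDPH (SE 0.15, adjusted p = 0.000362), and it rose by 1.17 from VPH to TDPH (SE 0.15, adjusted p = 1.44e-05). The brighter probe set, 1370893_at, stayed between 1798 and 2575 on all 18 arrays, with differences from PH of -0.06 for SPH and 0.11 for TDPH (adjusted p = 0.718 and 0.441) and 0.28 between TDPH and VPH (adjusted p = 0.0239). The last was 0.22 with centred arrays (adjusted p = 0.187) and 0.24 without TDPH replicate 3 (adjusted p = 0.101). Which transcripts each probe set reads was not tested.

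Fasn, the palmitate-building enzyme, followed another order, with its highest mean after vagotomy. Probe set 1367708_a_at read 4887, 4971 and 5008 after sham operation, 8484, 8879.7 and 7913 after PH, 11043, 11058 and 11056 after VPH and 7366, 7599.8 and 7817 after TDPH. The VPH arrays lay above all PH arrays and the TDPH arrays below them, although the difference of TDPH from PH did not pass (-0.15, adjusted p = 0.318). PH was higher than sham by 0.76 (SE 0.09, adjusted p = 4.4e-06), VPH higher than PH by 0.39 (adjusted p = 0.00782), and TDPH lower than VPH by a difference of -0.54 (adjusted p = 0.000271). The second probe set, 1367707_at, gave 0.49 for PH against sham (adjusted p = 0.00273) and 0.42 for VPH against PH (adjusted p = 0.0166), while its TDPH level, 3010 ± 107, was not below PH (2576 ± 96.2). With centred arrays the vagotomy differences of the 2 probe sets were 0.30 and 0.33 and did not pass (adjusted p = 0.115 and 0.113).

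Elovl6, the elongase that acts on palmitate, was the member with the widest spread. Its brighter probe set, 1388108_at, read 7459, 3079.7 and 2316 on the 3 SPH arrays, beside 4169, 3657 and 3824 after PH and 2424, 2615 and 2682 after sham operation. The SPH arrays thus lay on both sides of PH. With SE of 0.25 and 0.23, from a spread shared by all 6 groups including SPH, neither probe set passed in any comparison with PH. Every PH array nevertheless lay above every sham array on both probe sets. These differences were 0.59 for 1388108_at and 0.43 for 1394401_at (adjusted p = 0.101 and 0.196). The probe set 1394401_at was 594.7 ± 27.3 in normal liver and 369.7 ± 17.1 after sham operation, a difference of -0.67 that lay just under the threshold (SE 0.23, adjusted p = 0.05 as rounded). Without SPH replicate 1, both Elovl6 probe sets were lower in SPH than in PH, by differences of -0.54 and -0.42 (adjusted p = 0.0057 and 0.0114).

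Scd1, the main stearoyl-CoA desaturase of liver, was set apart by its response to vagotomy. Its signals were 18076, 18421 and 17885 after sham operation, 30362, 28936 and 29093 after PH, 16060, 15636 and 16029 after VPH and 29009, 27862 and 29890 after TDPH. PH and TDPH overlapped, and every VPH array lay below every array of normal, sham and PH liver. PH was higher than sham by 0.70 (SE 0.13, adjusted p = 0.00048), VPH was lower than PH by a difference of -0.89 (SE 0.13, adjusted p = 9.46e-05), and TDPH was higher than VPH by 0.86 (adjusted p = 6.71e-05). The SPH arrays read 26061, 30211 and 16157, so that 1 lay within the PH range, 1 below it and 1 just above the VPH arrays. The difference of SPH from PH was -0.34 (adjusted p = 0.0956).

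The contrast TDPH minus SPH minus VPH plus PH asks whether the effect of both lesions equals the sum of the single ones. Among the members it gave 1 rise and no fall, where 1.55% of all tested rose and 1.87% fell. The rise was Scd1 at 1.20 (SE 0.18, adjusted p = 0.000164): the sum of the single lesions would have put it below PH, and the TDPH arrays overlapped those of PH. Without SPH replicate 3 the value was 0.93 (adjusted p = 1.22e-08), under 2-fold. Past the adjusted p alone, Scd1 was the single member above additivity, where 6.4% of all tested were, and 3 probe sets were below it, namely both of Fasn and Plin2 1390383_at, where 5.91% were. Without SPH replicate 1 there were 5 above and 3 below, and without SPH replicate 2 there were 1 and 6.

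Gpam, the mitochondrial acyltransferase at the entry to glycerolipid synthesis, showed the largest response to denervation among the members. For 1382986_at the signals were 1377, 1268 and 1282 in normal liver, 999.6, 1040 and 1166 after sham operation and 720.2, 705.5 and 728 after PH. The 3 PH arrays lay below all others of these groups, and the difference of PH from sham was -0.56 (SE 0.11, adjusted p = 0.000709). With sympathectomy the signals were 2292, 1509 and 2002, with vagotomy 809, 781 and 794, and with total denervation 1593, 1616 and 1868. All 6 arrays of livers without sympathetic nerves lay above all 12 others.

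From PH to SPH this Gpam probe set rose by 1.39 (SE 0.11, adjusted p = 1.24e-07) and from PH to TDPH by 1.22 (SE 0.11, adjusted p = 3.57e-07). Between PH and VPH the difference was 0.14 (adjusted p = 0.453), and between SPH and TDPH it was -0.17 (adjusted p = 0.339), with overlapping arrays. Against vagotomy the rises were 1.25 for SPH (adjusted p = 1e-07) and 1.08 for TDPH (adjusted p = 6.51e-07). The second probe set, 1369758_at, read 358, 389.6 and 356 after PH, 1642, 836 and 949 after SPH, 429, 438 and 426 after VPH and 749, 827 and 955 after TDPH. It rose by 1.54 in SPH (SE 0.17, adjusted p = 3.82e-06) and by 1.16 in TDPH (SE 0.17, adjusted p = 5.64e-05). Without SPH replicate 1, the highest array in both, the SPH rises were 1.26 and 1.25, still past both thresholds. Over all alternatives, the highest adjusted p of the SPH rise was 0.00112 for 1382986_at and 0.00353 for 1369758_at.

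Gpam, Srebf1 and Acly passed as higher than PH in both groups without sympathetic nerves, within the limits given above for Srebf1 and Acly. The dimmer Acaca probe set also passed in both, but no promoter sequence was at hand for Acaca. The promoter sequences of Gpam, Srebf1 and Acly, and of G0s2, which fell after hepatectomy, are shown to be read beside these levels. They are the 250 bases before the transcript start in RefSeq's rat genome GRCr8, all on the minus strand and written 5′ to 3′, at chr1:264175912-264176161 (Gpam), chr10:45529165-45529414 (Srebf1), chr10:85963632-85963881 (Acly), chr13:107335949-107336198 (G0s2). Capitals mark matches, on either strand, to 6 short motifs: TATAAA, the E-box CACGTG, the sterol response core TCACNCCAC, CCAAT, the GC box GGGCGG and TGACG.
Gpam: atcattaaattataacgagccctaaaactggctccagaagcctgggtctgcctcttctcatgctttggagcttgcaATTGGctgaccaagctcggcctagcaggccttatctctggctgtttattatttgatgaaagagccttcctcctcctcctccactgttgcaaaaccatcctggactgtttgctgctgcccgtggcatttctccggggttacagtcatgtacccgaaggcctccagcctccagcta
Srebf1: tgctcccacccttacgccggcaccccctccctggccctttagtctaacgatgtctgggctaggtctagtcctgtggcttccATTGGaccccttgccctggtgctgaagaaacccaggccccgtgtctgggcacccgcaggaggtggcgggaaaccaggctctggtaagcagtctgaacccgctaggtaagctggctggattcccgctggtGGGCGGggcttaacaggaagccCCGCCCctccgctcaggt
Acly: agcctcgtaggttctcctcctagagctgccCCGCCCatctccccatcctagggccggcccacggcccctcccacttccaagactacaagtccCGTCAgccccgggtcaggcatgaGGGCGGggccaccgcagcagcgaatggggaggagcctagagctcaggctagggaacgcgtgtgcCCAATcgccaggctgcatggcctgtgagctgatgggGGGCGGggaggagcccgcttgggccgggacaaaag
G0s2: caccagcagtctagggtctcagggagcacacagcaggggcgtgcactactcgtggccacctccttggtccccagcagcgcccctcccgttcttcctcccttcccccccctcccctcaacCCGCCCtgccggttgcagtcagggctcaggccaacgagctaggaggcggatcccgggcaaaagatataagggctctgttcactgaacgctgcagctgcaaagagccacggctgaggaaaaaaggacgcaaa
Gpam held 1 CCAAT match, starting at position -174 from the start, and Acly held 1 at -71, 3 GC boxes at -220, -135 and -35 and 1 TGACG at -158. The first Srebf1 promoter held 1 CCAAT match at -169 and GC boxes at -40 and -18. A second Srebf1 promoter, not printed, held CCAAT matches at -131 and -108 and GC boxes at -143 and -84, and G0s2 a single GC box at -131. Of 33469 rat promoters of the same length, 34.0% held CCAAT, 30.5% GGGCGG and 18.2% TGACG, so these matches are common. Neither the E-box (5.59% of promoters) nor the sterol response core (0.974%) was matched in these 4 windows or in the second Srebf1 window. Sites that depart from the letters given were not searched for. Which Srebf1 start was in use in these livers was not tested.

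Plin2, a coat protein of hepatocyte lipid droplets, was higher after hepatectomy with no lesion or a single nerve lesion than after total denervation. Its bright probe set 1390383_at read 7229, 7225 and 7101 in normal liver, 9738, 9997 and 10095 after sham operation and 15282, 15838 and 14921 after PH. Each group lay wholly above the one before, by 0.47 for sham against normal (SE 0.06, adjusted p = 4.9e-06) and 0.63 for PH against sham (SE 0.06, adjusted p = 8.33e-08). SPH (16187, 13146 and 14311) and VPH (15358, 14795 and 15168) overlapped PH. TDPH read 10078, 10780 and 11196, close to sham, and was lower than PH by a difference of -0.52 (SE 0.06, adjusted p = 2.91e-06), lower than SPH by -0.44 (adjusted p = 2.41e-05) and lower than VPH by -0.50 (adjusted p = 2.76e-06). The dim probe sets 1382680_at and 1390850_at differed from PH by -0.33 and -0.42 in TDPH and did not pass (adjusted p = 0.278 and 0.124).

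G0s2, the inhibitor of adipose triglyceride lipase, had the largest difference of any member. It read 8147, 7694 and 8289 in normal liver and 8166, 8273 and 8101 after sham operation, which overlapped. After PH it read 1538, 1445 and 1479, and it fell by 2.45 on the log2 scale from sham (SE 0.09, adjusted p = 1.69e-13). The denervated livers ranged from 1169 to 2273, with 1672, 1173 and 1169 after SPH, 2104, 2182 and 2273 after VPH and 1565, 1682 and 1575 after TDPH. Vagotomy left it above PH by 0.55 (SE 0.09, adjusted p = 0.000382), with every VPH array above every PH array, while TDPH (0.11, adjusted p = 0.477) and SPH (-0.17, adjusted p = 0.254) did not differ detectably. Without SPH replicate 1 the SPH difference was -0.34 (adjusted p = 0.000239).

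The denervated groups were also compared with one another. From VPH to SPH both Gpam probe sets rose, where 1.48% of all tested rose, and from VPH to TDPH 1 of Gpam and 1 of Acaca rose, where 1.94% did. None fell in either, where 1.3% and 0.877% of all tested did. Past the adjusted p alone, SPH had 7 higher and 1 lower than VPH (9.96% and 10.3% of all tested), which became 7 and 6 without SPH replicate 1. TDPH had 8 higher and 3 lower (12% and 9.02%). Between SPH and TDPH none rose or fell, where 1.12% rose and 0.542% fell; past the adjusted p alone, 1 was higher and 3 lower in TDPH (8.12% and 6.27% of all tested), the lower ones being Fasn 1367708_a_at, Plin2 1382680_at and Plin2 1390383_at. These counts turned on single arrays: there were 6 higher and 1 lower without SPH replicate 1, 1 and 5 without SPH replicate 2, and 0 and 1 without any 1 of the TDPH arrays.

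The spread between the SPH arrays bears on every statement about sympathectomy. The median SD over the 16 member probe sets was 0.298 on the log2 scale in SPH and 0.034 to 0.086 in the other 5 groups. The fit used the same spread of a probe set for every group, so differences with SPH carried the same SE as those without it. The adjusted p-values of differences with SPH may therefore be too small. That 1 array led its group was not particular to SPH. TDPH replicate 3 was the highest of its group in 13 of 16 member probe sets and sham replicate 3 in 10. The share over all probe sets was not counted. SPH replicate 1 was the highest of its group in 12 of the 16. The summed signal of the neutrophil markers (6 of 7 listed had a probe set, 5 passed the filter, Camp did not) was 41688 on that array, 25312 and 19743 on the other SPH arrays, 11776 to 12375 in PH and 4930 to 5803 in TDPH; its part in the results was not tested. Of 8 hepatocyte markers, 7 were higher in SPH than in PH past the adjusted p (median 0.23), which was likewise not tested as a part of them. On SPH replicate 3 the summed lymphocyte markers, mostly Cd74, were 20751, beside 7136 on replicate 1 and 9013 on replicate 2. Scd1 was lowest of the group on that same replicate 3 (16157). The part of these markers in the results was not tested. Without replicate 1, 4 member probe sets were higher and 4 lower in SPH than in PH past the adjusted p alone. The 4 higher ones were both of Gpam, Acaca 1387538_at (0.72, adjusted p = 0.00833) and Srebf1 1371104_at (0.42, adjusted p = 9.52e-05), while Fasn 1367707_at (0.14, adjusted p = 0.142), Srebf1 1388426_at (0.11, adjusted p = 0.17) and Acly no longer passed. The 4 lower ones were G0s2, both of Elovl6 and Plin2 1390383_at (-0.16, adjusted p = 0.0256).

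**Figure D3:**
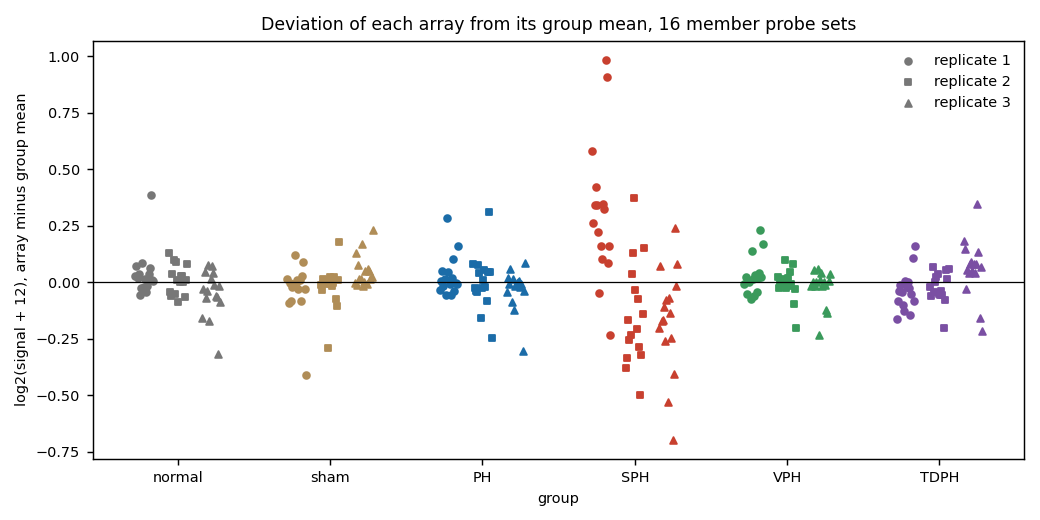
Log2(signal + 12) of each array minus the mean of its group (vertical axis) for the 16 member probe sets, by group (horizontal axis); symbols give the replicate. The SPH arrays scatter widely, with a median SD of 0.298, and the circles of replicate 1 lie mostly above 0.

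Around the members, 86 further genes of the same pathways were counted in 5 lists, of which 74 had a tested probe set. Few moved by 2-fold: 3 fell and none rose after sham operation, 1 rose and none fell after hepatectomy, 1 fell in each of SPH and TDPH against PH, and none did either in VPH. Those 2-fold counts stand beside the shares of all tested probe sets given above for the same comparisons, which ran from 0.94% to 1.98% rising and 0.362% to 2.39% falling. Past the adjusted p alone, hepatectomy left 16 higher and 11 lower, where 8.75% and 13.6% of all tested were. The 18 tested genes of fatty acid synthesis, elongation and desaturation had 7 higher and 1 lower, among them the elongase Elovl5 (0.57, adjusted p = 4.57e-08) and the desaturases Fads1 (0.36) and Fads2 (0.40). The 13 of glycerolipid assembly had 3 higher and 3 lower, the 11 of droplet coat and growth 3 and 2, the 15 regulators 1 and 3, and the 17 of lipolysis and fatty acid handling 2 and 2.

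Pnpla3, a droplet enzyme related to the triglyceride lipase that G0s2 inhibits, gave the largest rise of the wider lists. It read 426, 402 and 440.3 after sham operation and 2551, 2711 and 2675 after PH, a rise of 2.61 (SE 0.15, adjusted p = 6.08e-11), and its second probe set rose by 1.85 (adjusted p = 6.51e-06). Mid1ip1, which promotes the polymerization of acetyl-CoA carboxylase, fell from 4943 ± 113 in normal liver to 1328 ± 97.5 after sham operation, a difference of -1.89 (SE 0.11, adjusted p = 1.41e-10), and was lower again after PH by -0.73 (adjusted p = 4.95e-05). Plin5, a droplet coat protein of oxidative tissues, read 116, 112 and 131 after PH and 10.8, 9.13 and 28.3 after TDPH, a difference of -2.29 at low signals (SE 0.47, adjusted p = 0.00184), which was -0.99 with a pseudocount of 90 in place of 12. Its difference of -1.56 in SPH (adjusted p = 0.031) was lost when any single PH array was left out, as well as without SPH replicate 2.

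After sympathectomy, 10 of the 74 wider genes were higher and 9 lower than after PH alone past the adjusted p, where 7.41% and 6.8% of all tested were. Higher ones included Srebf2, the regulator of sterol synthesis (0.69, adjusted p = 0.000132), and Insig2, which helps to hold the SREBP proteins in the endoplasmic reticulum (0.42, adjusted p = 0.000573). Total denervation gave 6 higher and 13 lower (10.5% and 7.24% of all tested), with Srebf2 higher (0.42, adjusted p = 0.00742) and Cideb, a hepatocyte droplet protein used in lipoprotein loading, lower (-0.90, adjusted p = 2.12e-08). Vagotomy gave 6 higher and 13 lower (6.04% and 5.93%). The lower ones included the carbohydrate-response factor gene Mlxipl (-0.54, adjusted p = 0.00196), Fads1 (-0.45, adjusted p = 0.000306) and Fads2 (-0.34, adjusted p = 0.000807). The higher ones included Cidea (0.86, adjusted p = 0.00261), Mid1ip1 (0.72, adjusted p = 0.000141) and Scd2 (0.71, adjusted p = 0.0116). A dimmer Scd2 probe set did not pass (0.41, adjusted p = 0.347).

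**Figure D4:**
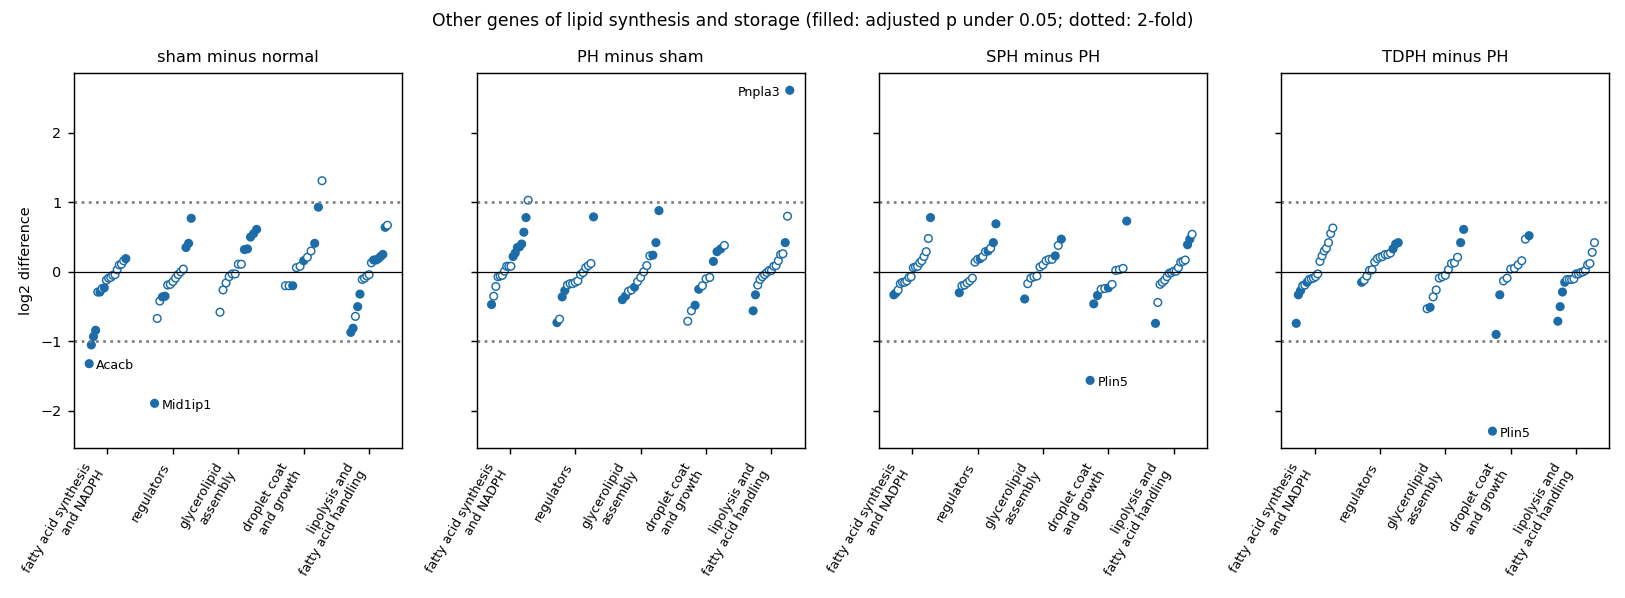
Log2 differences (vertical axis) of the 74 tested genes of 5 wider lists (horizontal axis) in 4 comparisons; filled points have an adjusted p under 0.05, dotted lines mark 2-fold and names mark called genes given in the text. Most points lie within 2-fold, with Pnpla3 at 2.61 in PH minus sham and Plin5 at -2.29 in TDPH minus PH.

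The 3 other genes whose signals most resembled Gpam 1382986_at over the 18 arrays were Slco2b1 (Pearson r = 0.916), Stard13 (0.914) and Eif5 (0.912), beside 0.939 for its own second probe set. For G0s2 they were Foxa2 (0.99), Rsrp1 (0.983) and Rbm5 (0.972). The points of these correlations share arrays and groups, so they are given as a description. Slco2b1, an organic anion transporter, was 756.6 ± 36.8 after PH, 1687 ± 136 after SPH and 1308 ± 98.7 after TDPH. Foxa2, a hepatocyte transcription factor, was 1604 ± 46.7 after sham operation and 597 ± 54.4 after PH.

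The authors' deposited table gives log2 ratios of each array to each normal array, 9 per group. In it the median for Gpam 1382986_at was -0.3 for sham, -0.6 for PH, 0.6 for SPH, -0.5 for VPH and 0.5 for TDPH. For G0s2 the authors' deposited table gives 0.0 for sham, -2.7 for PH, -2.9 for SPH, -2.2 for VPH and -2.4 for TDPH. Its Scd1 medians were 0.6 for PH and -0.2 for VPH, and its Plin2 1390383_at medians 1.1 for PH and 0.6 for TDPH in the authors' deposited table. The VPH ratios of that table rest on replicates 1 and 2 and on 1 signal column that equals no array used here, and VPH replicate 3 is not among them.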

How the data were processed

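The deposited value table holds 1 signal intensity per probe set and array on a linear scale (31099 probe sets, 57 of them controls, which were left out). Per the submitters' processing notes the software was GCOS 2.0. Each array had been scaled, so that its mean signal after trimming 2% at both ends was 500 to the nearest whole number. Log2 ratios to normal liver come from the authors' deposited ratio table, which does not state how they were computed; 17 of its 18 signal columns matched an array, and VPH replicate 3 was not matched. Gene symbols were taken from that table and brought to current names through a RefSeq table. The file's symbol Scd carries the accession of Scd2 and was not taken for Scd1.

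Signals were used without further normalization as log2(signal + 12), which understates changes of dim probe sets. A model of 6 group means was fitted with limma 3.58.1 (R 4.3.3; functions lmFit and eBayes, the prior variance following the mean level; 12 residual and 7.1 prior degrees of freedom) over 22125 probe sets of the 18 arrays, two-sided, with Benjamini-Hochberg adjustment over all of them within each of 9 comparisons. Adjusted p-values are from this fit unless an alternative is named beside them. Each alternative was fitted anew with its own adjustment, save that dropping the fold threshold kept this fit. Values after ± are SDs of 3 arrays. The same steps were tested on simulated data, but the outcome is not reported here and no conclusion is drawn from it. The number of arrays limits the precision, which covers only the spread between arrays. The spread between animals could not be estimated, because the labels do not state their number. Every member probe set is named. Genes of the wider lists are named in full where called with groups that do not overlap, and the others named, past the adjusted p alone, were chosen after their values were seen. Of the called genes, 1 of the wider lists is counted but not reported here by name. Where a wider gene had several probe sets, the one with the highest mean signal was used. Members and lists were chosen with earlier results of these data known. Replicate numbers did not pair the arrays: deviations of same-numbered arrays from their group means correlated at -0.027 to 0.058. Alternatives covered the pseudocount, scaling, filter, spread model, replicate block, array weights and each array left out.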

Additional observations from a re-analysis of the deposited data

Results flagged for a closer look

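For 4 member probe sets the effect of total denervation differed from the sum of the single lesions, by the limma contrast TDPH minus SPH minus VPH plus PH at an adjusted p under 0.05. Scd1 was above the sum by 1.20 on the log2 scale (adjusted p = 0.000164), and it was 0.93 without SPH replicate 3. Fasn was below it on both probe sets, at -0.55 for 1367707_at (adjusted p = 0.0267) and -0.70 for 1367708_a_at (adjusted p = 0.00124). Plin2 1390383_at was below it at -0.42 (adjusted p = 0.00143). The Fasn 1367707_at value was -0.53 with arrays centred on their median (adjusted p = 0.072).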

How the results depend on the processing

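No member difference that passed the adjusted p changed sign under any alternative that was run. Some that had not passed did, and 1 of these then passed: Elovl6 1394401_at in SPH against PH went from 0.04 to -0.42 (adjusted p = 0.0114) without SPH replicate 1. With the fold threshold dropped, the members called were 5 for sham against normal, 7 for PH against sham, 7, 5 and 7 for SPH, VPH and TDPH against PH, 8 for SPH against VPH, 4 for TDPH against SPH, 11 for TDPH against VPH and 4 for the non-additive contrast, in place of 0, 1, 2, 0, 2, 2, 0, 2 and 1. A pseudocount of 90 left 1 for TDPH against VPH. Leaving out each array in turn gave 2 to 3 for TDPH against PH, SPH against VPH and TDPH against VPH, and 0 to 1 for the non-additive contrast, where the 0 came without SPH replicate 3; the other 5 counts did not move. The replicate block, a fit with the array number as a block, left the count at 2 for SPH against PH and at every other count of called members, and same-numbered arrays were not paired. Past the adjusted p alone, SPH against PH had 7 member probe sets in the fit reported, 5 with the replicate block, 4 with centred arrays, 4 with array weights and 4 to 9 with an array left out. The Gpam differences from PH ranged from 1.25 to 1.73 in SPH and from 1.01 to 1.26 in TDPH over all alternatives, and G0s2 in PH against sham from -2.47 to -2.29.

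Counts over all probe sets moved more. PH against sham had 966 calls, 45.3% of them higher, and 941 calls with 67.7% higher when arrays were centred. TDPH against PH had 365 calls, 78.1% higher, and 286 with 51.7% higher when centred. SPH against PH had 329, 63.2% higher, and 291 with 48.5%; VPH against PH had 397, 61% higher, and 395 with 46.8%; TDPH against SPH had 367, 67.3% higher, and 334 with 55.1%. A pseudocount of 90 cut the 9 counts to between 100 and 481. Array weights raised VPH against PH to 679 and TDPH against VPH from 624 to 1065, and lowered SPH against PH to 210. Fitting only the compared groups left 169 for SPH against PH, 391 in place of 614 for SPH against VPH and 199 for TDPH against SPH. Acacb (-1.32), which fell after sham operation, lost its call under several alternatives, as did Scd2 (-1.16) and Cidea (-1.07) in the non-additive contrast. Array weights and the averaging of VPH replicates 2 and 3 were chosen after seeing the data.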
